A study of Homo sapiens with 6 samples.

Results

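The 10 genes described here, TTR, RBP4, AHSG, FETUB, AMBP, ITIH1, ITIH2, ITIH3, ITIH4 and VTN, encode secreted plasma proteins made largely by the liver. They were chosen by name, and every called region whose assigned gene symbol was one of them was taken, so that they stand for 10 of the 16428 genes with at least 1 region in the series. The series profiled RNA polymerase II by ChIP-seq in untreated HepG2 cells, a human hepatoma line. SHP-1-KO cells were made by CRISPR with guides against exons for the phosphatase domain of PTPN6, the gene for the tyrosine phosphatase SHP-1. The study describes controls given a nontargeting guide and untransfected cells, and does not state which were the SHP-1-WT cells of the ChIP-seq. SHP-1-KO cells and nontargeting controls came from puromycin-selected single-cell clones. Each genotype can thus carry differences of a clone that are unrelated to SHP-1, and the sources used here do not state which clone was profiled. 1 antibody recognised RPB1, the largest polymerase subunit, and the other recognised RPB1 phosphorylated on serine 2 of its tail repeats (pSer2 RPB1), with 1 library of each antibody per genotype. With this design the effect of genotype could not be tested, and a gene is counted as lower or higher when its strongest value differed by 1.5-fold or more.

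Plasma carriers move poorly soluble or potentially harmful molecules through blood. TTR (transthyretin) carries thyroxine and binds RBP4, the retinol carrier. AHSG and FETUB are fetuins, secreted members of the cystatin superfamily, and AHSG keeps calcium phosphate from precipitating. AMBP is a precursor that is cut into alpha-1-microglobulin, a heme scavenger, and bikunin, a protease inhibitor. Bikunin is joined through chondroitin sulfate to heavy chains from ITIH1, ITIH2 and ITIH3, which are transferred to hyaluronan in the extracellular matrix. ITIH4 is a related protein that carries no bikunin, and VTN (vitronectin) is an adhesion protein that also stabilises the inhibitor PAI-1. Polymerase that has just begun a gene collects near its start, whereas serine 2 phosphorylation builds up as the enzyme elongates and is typically highest near the end of the gene.

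The lists held 46045 regions for WT RPB1, 41605 for SHP-1 KO RPB1, 102674 for WT pSer2 RPB1 and 81012 for SHP-1 KO pSer2 RPB1, each with a fold enrichment over input at its summit. The regions assigned to the 10 genes numbered 78, 70, 46 and 38 in the same order. All 10 genes had a region in 3 of the lists, and ITIH1 had none in SHP-1 KO pSer2 RPB1. Read depth was not given in the lists, and a gene without a region is one for which no region was called, not one without polymerase. PTPN6 itself had a strongest RPB1 fold of 24.0 in WT and 17.2 in SHP-1 KO, which does not check the genotype, because a guide cut in an exon need not remove polymerase from the gene. Of 10 liver cell markers, 9 had an RPB1 region in WT against 8 in SHP-1 KO. Blood cell markers gave 4 of 10 and 2 of 10, led by LYZ at 39.2 and 36.0, fibroblast or stellate markers 1 of 8 in both, endothelial markers 2 of 6 and 1 of 6, and neuron or choroid plexus markers 3 of 8 in both, led by the tubulin gene TUBB3 at 120 and 103.

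The promoter sequences below are shown for RBP4, AHSG and ITIH3, which had RPB1 regions over the start, and for FETUB, which had none there. RefSeq windows (GRCh38.p14), from 250 bases before to 50 after the start, matched 8 of the 10 genes in 13 windows, with no entry for TTR or ITIH2. Both strands were searched for motifs, and matches are in capitals. The TATA box bound by the general initiation machinery was searched as TATAAA. Sites of liver factors were searched as TGTTTAC for the forkhead factors FOXA, which open liver chromatin, and as CAAAGTCCA for the nuclear receptor HNF4A. Sites of the transcription factors CEBP and STAT were searched as TTGCNNAA and TTCNNNGAA respectively. RBP4 (chr10:93601186-93601485, minus strand) had a TATA box beginning 31 bases before its main start and a CEBP match. AHSG (chr3:186612810-186613109, plus strand) had an HNF4A and a CEBP match. ITIH3 (chr3:52794546-52794845, plus strand) had none. FETUB (chr3:186635719-186636018, plus strand, the first of its 2 RefSeq starts) had a TATA box beginning 30 bases before the start, although no region in any list overlapped this window.
RBP4: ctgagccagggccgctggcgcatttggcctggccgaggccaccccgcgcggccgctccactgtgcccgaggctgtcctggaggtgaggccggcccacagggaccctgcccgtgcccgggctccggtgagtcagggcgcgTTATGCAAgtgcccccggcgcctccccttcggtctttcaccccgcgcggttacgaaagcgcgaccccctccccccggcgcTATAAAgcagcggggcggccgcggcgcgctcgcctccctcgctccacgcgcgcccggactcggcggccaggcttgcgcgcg
AHSG: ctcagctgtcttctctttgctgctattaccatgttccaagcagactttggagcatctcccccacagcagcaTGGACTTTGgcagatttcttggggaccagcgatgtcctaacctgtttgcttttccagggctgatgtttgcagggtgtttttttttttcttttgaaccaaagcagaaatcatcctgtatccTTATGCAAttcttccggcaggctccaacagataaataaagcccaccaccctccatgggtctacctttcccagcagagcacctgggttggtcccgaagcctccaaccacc
ITIH3: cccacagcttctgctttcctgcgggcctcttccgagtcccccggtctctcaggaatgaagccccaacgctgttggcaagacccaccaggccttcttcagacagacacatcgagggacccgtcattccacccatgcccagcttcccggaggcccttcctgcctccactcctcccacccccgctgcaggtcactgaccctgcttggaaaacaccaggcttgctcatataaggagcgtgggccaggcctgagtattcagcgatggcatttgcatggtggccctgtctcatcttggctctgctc
FETUB: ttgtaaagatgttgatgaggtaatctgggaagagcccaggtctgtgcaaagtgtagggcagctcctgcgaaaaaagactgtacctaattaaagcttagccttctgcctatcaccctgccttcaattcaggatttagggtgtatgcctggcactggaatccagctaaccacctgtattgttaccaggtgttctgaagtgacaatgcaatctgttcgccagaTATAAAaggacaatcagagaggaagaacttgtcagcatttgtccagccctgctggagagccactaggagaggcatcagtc
TATAAA occurred in 11.5% of all 35116 promoter windows and in 4 of the 13 windows here, from 2 genes (RBP4, whose 3 windows overlap in part, and FETUB). The CEBP letters occurred in 10.5% of all windows and 4 of the 13 (AHSG, FETUB, RBP4 and VTN), the STAT letters in 7.66% and 3 of the 13 (ITIH4, RBP4 and VTN), and the HNF4A letters in 0.384% and 1 of the 13 (AHSG). The FOXA letters, in 3.42% of all windows, were in none of the 13 windows. None of these motifs overlapped another in the 4 printed sequences.

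RBP4, the retinol carrier, had the highest RPB1 enrichment of the 10 genes, and its KO to WT ratio was 1.01. In WT a single region of 13058 bp (chr10:93589090-93602147) covered the whole gene with a fold of 104 at its summit, 42 bp past the start in the 5′ UTR of exon 1, and ranked 39th of 46045. In SHP-1 KO the summit lay 41 bp past the start with a fold of 105 and ranked 11th of 41605, the called interval being divided into a promoter region of 2831 bp and a gene body region of 10019 bp. The strongest pSer2 RPB1 region lay at the other end of the gene, with a summit 811 bp past the gene end in WT and 832 bp past it in SHP-1 KO. It had a fold of 23.8 (rank 101) in WT against 32.3 (rank 6 of 81012) in SHP-1 KO, a KO to WT ratio of 1.36 that stays under the 1.5-fold limit. At the start, pSer2 RPB1 had a fold of 8.14 in WT against 8.23 in SHP-1 KO.

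TTR, the partner of RBP4 in plasma, was lower in SHP-1 KO with both antibodies and its called regions were broken up. The RPB1 region at the start (chr18:31591632-31593551 in WT) had a fold of 36.5 in WT and 20.3 in SHP-1 KO, a 1.79-fold lower value, with summits 33 and 29 bp past the start of the canonical transcript. The median ratio of all genes was itself 0.742, and divided by it the RPB1 ratio of TTR was 0.751, within the limit. In WT, 4 RPB1 regions of 1110 to 3470 bp covered 88.5% of the gene, and in SHP-1 KO 7 overlapping regions covered 35.9%. With pSer2 RPB1, 1 region of 10521 bp covered all of TTR in WT and ran 3449 bp past its end, whereas 9 pieces covered 48.8% in SHP-1 KO. The strongest pSer2 fold was 15.1 (rank 564) in WT against 8.93 (rank 2485) in SHP-1 KO, both with the summit past the gene end. The SHP-1 KO summit belonged to a region of 1586 bp that lay wholly beyond the gene, and within the gene the strongest SHP-1 KO value was 5.50.

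AHSG carried 1 unbroken region over the whole gene in every list, at 54.9 for WT RPB1, 38.3 for SHP-1 KO RPB1, 34.2 for WT pSer2 RPB1 and 29.4 for SHP-1 KO pSer2 RPB1. The RPB1 summits lay 59 and 50 bp past the start, and the pSer2 RPB1 summits 667 and 701 bp past the gene end. In both pSer2 lists it ranked 14th. The WT RPB1 interval (chr3:186611953-186627564) ran 6246 bp beyond the end of AHSG, and the other 3 intervals ended 6221 to 6249 bp beyond it. The RPB1 difference of 1.43-fold lower in SHP-1 KO and the pSer2 difference of 1.16-fold were both under the limit. A weaker RPB1 region upstream of AHSG (chr3:186598343-186600624 in WT) had a fold of 9.30 in WT and 4.50 in SHP-1 KO.

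The regions named for FETUB did not lie in FETUB. The strongest of them in each list began 6331 to 6518 bp past the end of AHSG, separated from the end of the long AHSG region by gaps of 81 to 296 bp, and ended 6196 to 6883 bp before the first RefSeq start of FETUB. Their fold was 12.5 for WT RPB1 (chr3:186627775-186629086), 13.2 for SHP-1 KO RPB1, 18.8 for WT pSer2 RPB1 and 17.8 for SHP-1 KO pSer2 RPB1, so that the genotypes differed little. No region in the 4 lists overlapped the canonical FETUB transcript, and its covered share was 0% throughout. Values under the name FETUB are thus values of the sequence beyond AHSG, and which transcript gave rise to the signal was not tested.

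**Figure D1:**
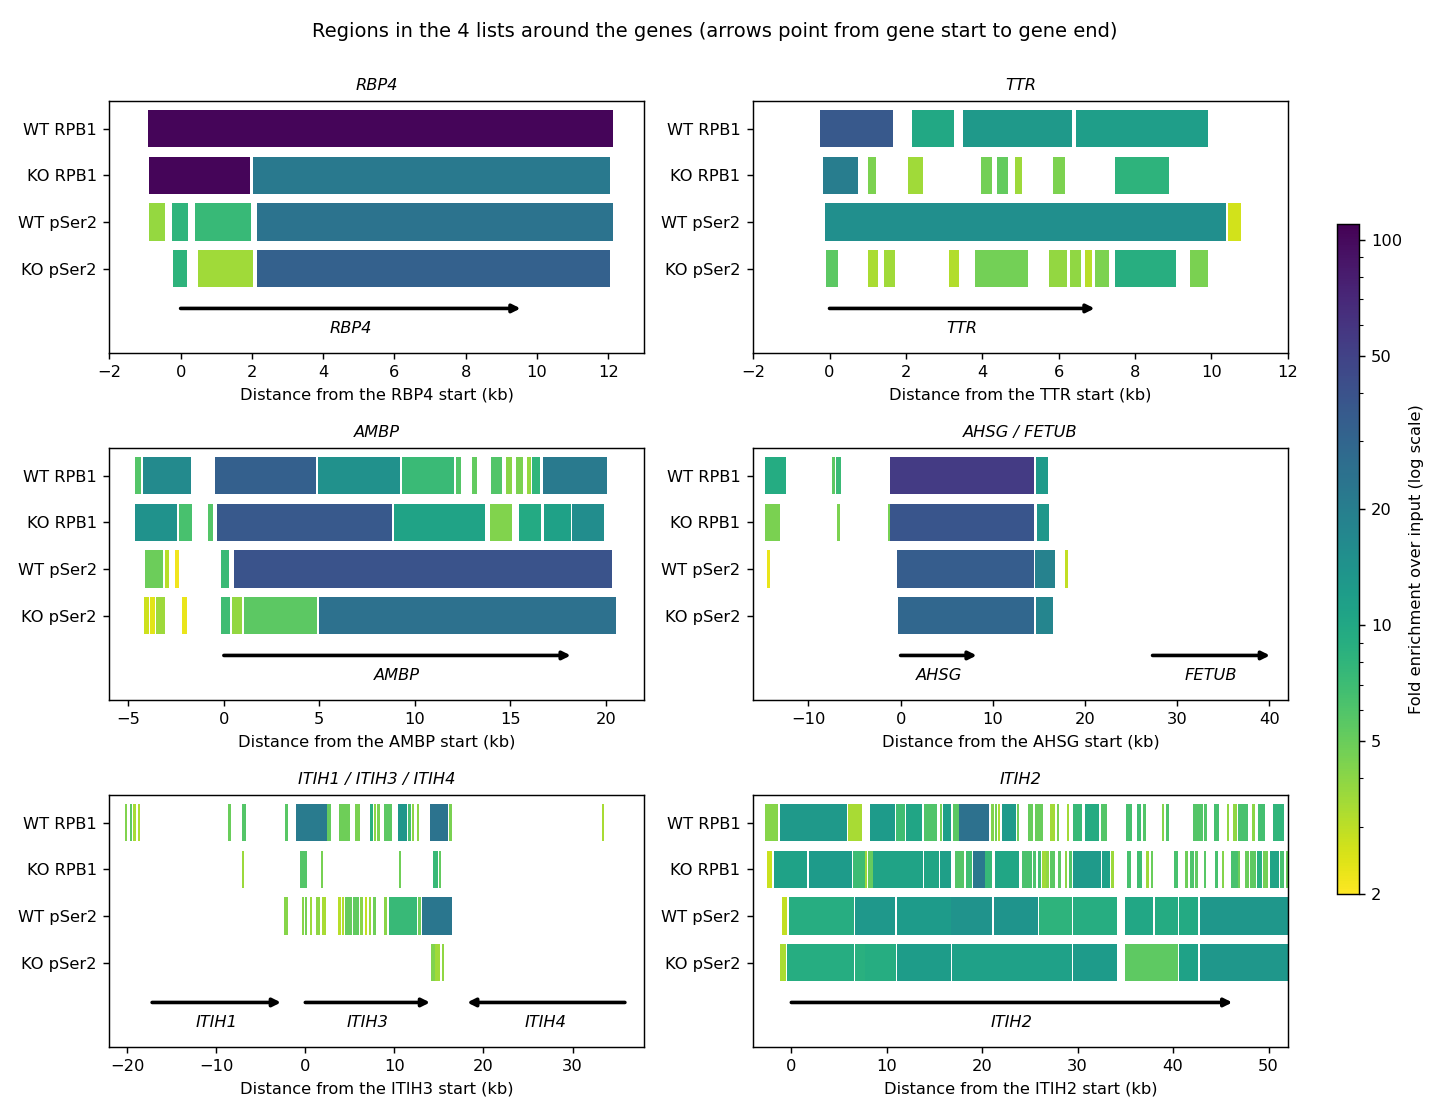
Called regions of the 4 lists around 9 of the genes, with distance in kb from the start of the gene named on each axis and colour giving fold enrichment over input on a log scale. AHSG was covered end to end in all 4 lists, RBP4 was covered over 95.7% of its length or more, TTR was broken into short pieces in SHP-1 KO, and the ITIH1, ITIH3 and ITIH4 panel lost most of its regions.

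AMBP, the source of bikunin, had an RPB1 ratio of 1.12 and a pSer2 RPB1 ratio of 0.632. Its RPB1 fold at the start was 32.7 in WT (chr9:114073448-114078745, rank 4831) and 36.5 in SHP-1 KO (rank 1767), with summits 58 and 19 bp past the start in the 5′ UTR. The WT pSer2 RPB1 region of 19797 bp (chr9:114057991-114077787) peaked 837 bp past the gene end with a fold of 39.6 and ranked 5th of 102674, the best rank of any of the 10 genes in either pSer2 list. In SHP-1 KO the pSer2 summit lay 878 bp past the end with a fold of 25.1 and a rank of 49, which is 1.58-fold lower. Divided by the median ratio of all genes, the pSer2 ratio of AMBP was 0.675, within the limit, and its RPB1 ratio was 1.51, just past it. Covered share stayed close, at 98.6% and 98.1% for pSer2 RPB1 and at 86.8% and 94.6% for RPB1. An intergenic RPB1 region upstream of the start (chr9:114080022-114082552 in WT) had a fold of 16.3 in WT and 14.2 in SHP-1 KO.

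ITIH2, the heavy chain gene on chromosome 10, was occupied along its 46205 bp in both genotypes. It received 32 RPB1 regions in WT against 37 in SHP-1 KO, which together with neighbouring regions covered 65.7% and 72.4% of the gene. The strongest RPB1 region lay inside the gene rather than at its start, with summits 19807 and 19761 bp past the start and folds of 24.9 and 22.2. At the start itself the RPB1 fold was 12.8 in WT against 10.9 in SHP-1 KO. Strongest pSer2 RPB1 folds were 14.0 and 12.5, with 95.5% and 96.4% of the gene covered. At the 3′ end, pSer2 RPB1 regions with folds of 13.1 in WT and 13.3 in SHP-1 KO were assigned to the neighbouring gene KIN, which encodes a DNA- and RNA-binding protein.

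The heavy chain genes ITIH1, ITIH3 and ITIH4, neighbours on chromosome 3, had few and weak regions in SHP-1 KO. ITIH3 was assigned 12 RPB1 regions in WT against 4 in SHP-1 KO, and 58.3% and 4.66% of the gene were covered. Its promoter region (chr3:52793744-52797205 in WT) had a fold of 21.0 with the summit 88 bp past the start, and the SHP-1 KO region that overlapped it had a fold of 5.81, which is 3.62-fold lower (a comparison chosen after the values were seen). By the strongest assigned regions, the ratio was 0.351, or 2.85-fold lower, since the strongest SHP-1 KO region named for ITIH3, at 7.39, lay beyond the gene end. With pSer2 RPB1, 16 WT regions were assigned to ITIH3, with a strongest fold of 7.37. A WT region at 22.9 that was named for ITIH4 also reached into ITIH3. None of the 16 overlapped a SHP-1 KO region, whereas 52.2% of all WT pSer2 RPB1 regions did. Apart from the strongest, of 3160 bp, the 16 were short and weak, with folds of 2.87 to 5.33 and widths of 200 to 828 bp. The single SHP-1 KO pSer2 region named for ITIH3 had a fold of 4.29 and lay 352 bp beyond the gene end at its summit.

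The strongest regions named for ITIH4 had their summits between the ends of ITIH3 and ITIH4, which converge on each other across 4164 bp. In WT, both began inside the end of ITIH3, and neither reached ITIH4. In WT this interval held an RPB1 fold of 23.9 (chr3:52808741-52810789) and a pSer2 RPB1 fold of 22.9 (chr3:52807884-52811267, rank 121), with summits 624 and 1299 bp past the end of ITIH3 and 3541 and 2866 bp past the end of ITIH4. Taken by the assigned symbol, ITIH4 was 4.53-fold lower in SHP-1 KO with RPB1 and 5.92-fold lower with pSer2 RPB1. The strongest SHP-1 KO regions overlapping those WT regions had folds of 7.39 and 4.29 and were assigned to ITIH3. Weaker overlapping ones, up to 5.28 for RPB1 and 3.86 for pSer2 RPB1, were assigned to ITIH4. By the strongest overlapping region the values were 3.24-fold and 5.33-fold lower (a comparison chosen after the values were seen). Within ITIH4, only 1 WT RPB1 region was called, with a fold of 3.38 in intron 2, and no list had a region at its start. The signal between the genes cannot be told apart as that of ITIH3 or ITIH4.

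ITIH1 was weak throughout. It had 7 short RPB1 regions in WT, the strongest at 5.85 in intron 16 (chr3:52787694-52788159), and 1 in SHP-1 KO at 3.65. Its only pSer2 RPB1 region, in WT, had a fold of 4.13 and lay 641 bp past the gene end, and a gene with a WT pSer2 RPB1 region but no SHP-1 KO region was found in 14.7% of 12740 genes. The same was true of 9.09% of 14164 genes for RPB1 and of none of the 10 genes. Counted together, ITIH1, ITIH3 and ITIH4 had 22 RPB1 regions over 14028 bp in WT and 6 over 2308 bp in SHP-1 KO, and 18 pSer2 RPB1 regions over 12736 bp in WT and 3 over 1179 bp in SHP-1 KO. This grouping was made after the values were seen.

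VTN gave 1 RPB1 region in WT (chr17:28368138-28370561) with a fold of 11.4, and 3 in SHP-1 KO with a strongest fold of 9.19. The SHP-1 KO summit was not at the start but 1644 bp past it, in coding exon 6, and the region overlapping the start had a fold of 4.34. The strongest pSer2 RPB1 fold was 4.78 in WT (rank 21055) and 7.82 in SHP-1 KO (rank 3620), 1.63 times the WT value, the only gene of the 10 higher by the limit. Regions over the gene end, assigned to the neighbouring homeobox gene SEBOX, had pSer2 RPB1 folds of 7.64 in WT and 7.04 in SHP-1 KO, and by any region overlapping VTN the ratio was 1.02.

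**Figure D2:**
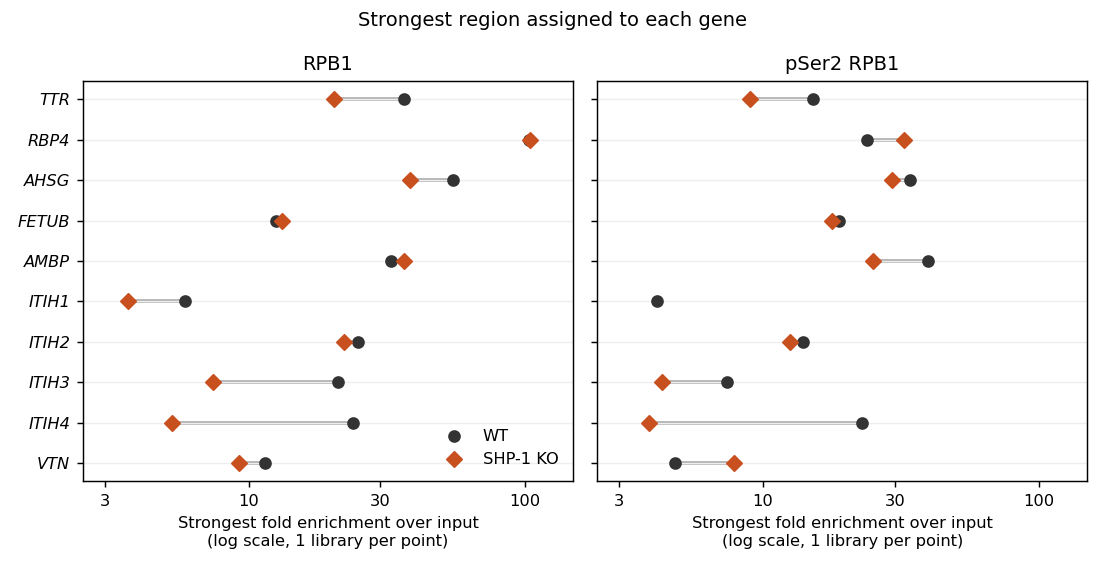
Strongest fold enrichment over input assigned to each gene in WT (circles) and SHP-1 KO (diamonds), for RPB1 and pSer2 RPB1, on a log scale with 1 library per point. RBP4 has the highest RPB1 value in both genotypes, ITIH3 and ITIH4 show the widest gaps between genotypes with RPB1, and ITIH1 has no pSer2 RPB1 point in SHP-1 KO.

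Over all 10 genes, the strongest RPB1 fold was lower by the limit in SHP-1 KO in 4 (TTR, ITIH1, ITIH3 and ITIH4), where 36.1% of 12877 genes were, and higher in 0, where 2.68% of genes were. The median KO to WT ratio was 0.751 for the 10 genes and 0.742 for all genes. Relative to that median of all genes, 2 of the 10 were lower by the limit (ITIH3 and ITIH4) and 1 was higher (AMBP, at 1.51). With pSer2 RPB1, 4 of 9 genes were lower (TTR, AMBP, ITIH3 and ITIH4) beside 11.7% of 10870 genes, and 1 was higher (VTN) beside 5.71%. The median pSer2 ratio was 0.861 for the 9 genes and 0.936 for all genes. Relative to the latter, 3 were lower (TTR, ITIH3 and ITIH4) and 1 higher (VTN). The shares of all genes here are for undivided ratios, so the counts relative to a median, with either antibody, have no share beside them. The RPB1 count of 4 in 10 lies near the share of all genes, and nothing about the 10 genes follows from it. Of all genes, 0.326% had an RPB1 ratio as low as that of ITIH4, 1.72% as low as that of ITIH3 and 17.8% as low as that of TTR. For pSer2 RPB1 the shares were 0.0184% for ITIH4, 5.61% for ITIH3, 6.05% for TTR and 8.95% for AMBP. The counts and shares for ITIH3 and ITIH4 follow the assigned symbol and are not separate. The strongest region between their ends was named for ITIH4 in WT and for ITIH3 in SHP-1 KO. By overlap the ITIH4 ratios were 0.309 for RPB1 and 0.187 for pSer2 RPB1, and no pSer2 RPB1 region lay inside ITIH4 in either genotype. For ITIH3 there was no pSer2 RPB1 ratio by overlap. Its pSer2 ratio by symbol set a WT region inside the gene against a SHP-1 KO region beyond the gene end.

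**Figure D3:**
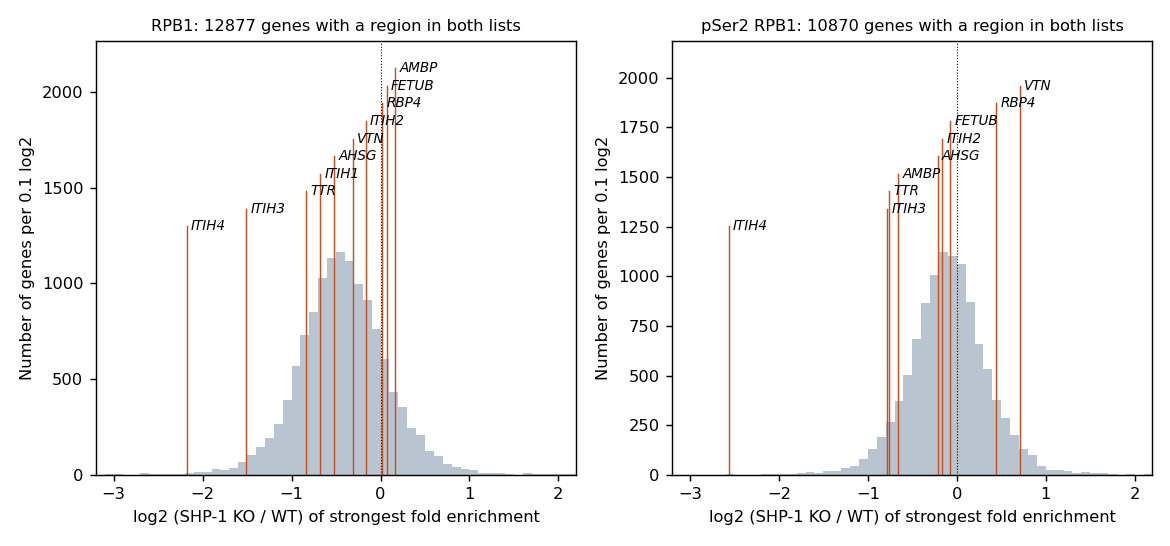
Distribution over genes of the log2 SHP-1 KO to WT ratio of the strongest fold enrichment (grey, number of genes per bin), for 12877 genes with RPB1 and 10870 with pSer2 RPB1, and the ratios of the named genes (red lines). By assigned symbol, ITIH4 lies at -2.18 and -2.57, far into the lower tail, whereas RBP4 lies at 0.01 and 0.44.

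Among the WT RPB1 regions of the 10 genes, 56 of 78 (71.8%, Wilson 95% interval 61.0 to 80.6%) overlapped a SHP-1 KO region by at least 1 bp, beside 61.9% of all WT RPB1 regions. For WT pSer2 RPB1 the share was 23 of 46 (50.0%, 36.1 to 63.9%), beside 52.2% of all regions. These intervals cover counting error only, and regions of 1 gene are not independent. The regions that were not shared came mostly from the chromosome 3 neighbours, which gave 18 of the 22 unshared WT RPB1 regions and 17 of the 23 unshared WT pSer2 RPB1 regions. All 13 AMBP regions and 29 of 32 ITIH2 regions of WT RPB1 were shared. In the other direction, 61 of 70 SHP-1 KO RPB1 regions (87.1%, 77.3 to 93.1%) and 37 of 38 SHP-1 KO pSer2 RPB1 regions (97.4%, 86.5 to 99.5%) overlapped a WT region, beside 74.9% and 69.9% of all regions. Of the 38, 11 were TTR regions that all lay within 1 WT region of 10521 bp, so pieces within a long WT region are each counted.

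In AHSG, AMBP, RBP4 and TTR, the strongest RPB1 summit lay near the gene start and the strongest pSer2 RPB1 summit past the gene end, in both genotypes. In WT, the strongest RPB1 summit lay within 100 bp of the start in 6 of 10 genes (AHSG, AMBP, ITIH3, RBP4, TTR and VTN), beside 38.4% of all genes. In SHP-1 KO this held for 4 (AHSG, AMBP, RBP4 and TTR), beside 38.4%. The strongest pSer2 RPB1 summit was within 100 bp of the start in none of the 10 genes in WT and none of 9 in SHP-1 KO, beside 8.57% and 9.41% of all genes. It lay 1 to 2000 bp past the gene end in 5 genes in WT (AHSG, AMBP, ITIH1, RBP4 and TTR), beside 16.7% of all genes, and in 5 in SHP-1 KO (AHSG, AMBP, ITIH3, RBP4 and TTR), beside 17.3%. The strongest region was in the top 10% of its list for 3 genes in each RPB1 list, beside 31.6% of all genes in WT and 30.0% in SHP-1 KO. With pSer2 RPB1 it was so for 8 of 10 genes in WT and 7 of 9 in SHP-1 KO, beside 45.9% and 41.7% of all genes. The 8 include FETUB (rank 251) and ITIH4 (rank 121), and the 7 include FETUB (rank 274). No pSer2 RPB1 region overlapped either of these genes, so both counts include signal outside the gene named.

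**Figure D4:**
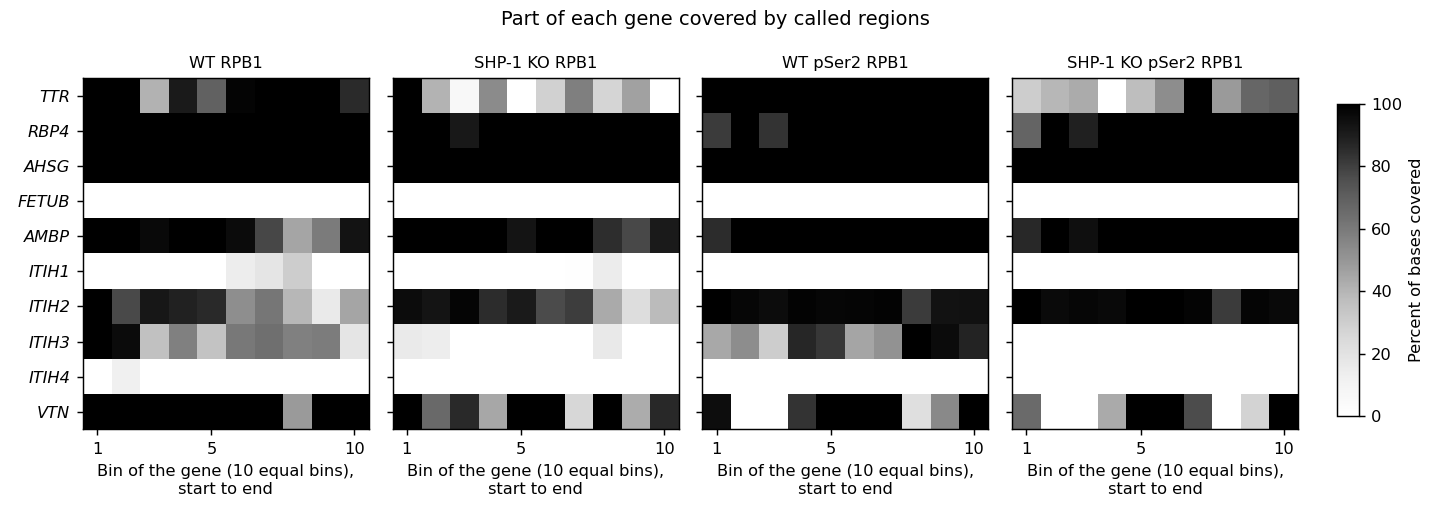
Percent of bases covered by called regions in 10 equal bins along each of the 10 genes, from gene start (left) to gene end (right), in the 4 lists. AHSG is covered in full in every list, FETUB in none, ITIH3 loses nearly all coverage in SHP-1 KO, and ITIH2 is covered over most bins in both genotypes.

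The further gene lists are given beside the same shares of all genes, 36.1% lower with RPB1 and 11.7% lower with pSer2 RPB1, and the differences between lists were not tested. Of 32 further genes for secreted plasma proteins, 25 had an RPB1 value in both genotypes, of which 10 were lower by the limit and 0 higher, with a median ratio of 0.720. For pSer2 RPB1, 7 of 26 were lower and 2 higher, with a median of 0.827. KNG1, which encodes kininogen and also belongs to the cystatin superfamily, had the lowest RPB1 ratio, from 21.5 in WT to 6.24 in SHP-1 KO, followed by C3, the central complement protein, from 81.8 to 36.7. AFP (34.2 and 40.2) and ORM2 (6.51 and 8.44) had the highest ratios. In the list for thyroxine and retinol carriage and handling, 4 of 7 genes were lower with RPB1 and 2 of 5 with pSer2 RPB1, with none higher. RXRA, a retinoid receptor, went from 45.8 to 16.8 and DIO1, which activates thyroxine, from 21.3 to 9.68, whereas ALB (24.4 and 24.1) and THRB (12.7 and 15.0) did not pass the limit.

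Among hyaluronan and inter-alpha inhibitor partners, 3 of 7 genes were lower with RPB1 and 0 of 7 with pSer2 RPB1, where 1 was higher. The hyaluronan synthase gene HAS3 (14.9 and 6.84) and the chondroitin synthase gene CHSY1 (20.1 and 9.64) had the lowest RPB1 ratios, and XYLT2 (45.7 and 46.0) and UGDH (9.43 and 9.89) the highest. Vitronectin partners had 1 of 7 lower with RPB1 (ITGB1, 42.4 and 26.9) and 2 of 6 with pSer2 RPB1. For fetuin neighbours and the cystatin family, 2 of 4 were lower with RPB1 (KNG1, and CST3 at 86.8 and 55.6) and 0 of 3 with pSer2 RPB1. Liver lineage factors had 3 of 11 lower with RPB1, with ONECUT1 at 40.6 and 16.1 the lowest, and 2 of 10 lower and 1 of 10 higher with pSer2 RPB1.

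The genes nearest in their 4 strongest folds to the median of the 9 genes present in all lists (24.9, 20.3, 18.8 and 12.5 for WT RPB1, SHP-1 KO RPB1, WT pSer2 RPB1 and SHP-1 KO pSer2 RPB1) included FDX2, WBP1, TXNRD1 and TMBIM6, at Euclidean distances of 0.175 to 0.304 log2 units among 9237 genes. The nearest, FDX2, which encodes a mitochondrial ferredoxin, had folds of 24.3, 19.4, 17.6 and 11.4. The median took its values from ITIH2, TTR, FETUB and ITIH2 in list order, so it is the profile of no single gene. Its FETUB value came from sequence beyond AHSG.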

How the data were processed

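ChIP-seq libraries of HepG2 cells were made with antibodies to RPB1 and pSer2 RPB1 in WT and SHP-1 KO cells, with 1 input per genotype. According to the study's methods, reads were trimmed (Trimmomatic), aligned to hg38 (BWA) and narrow peaks were called per library against the matched input (MACS2); versions are not given in the sources used here. The authors deposited, for each region, a fold enrichment over input at the summit (a ratio), and -log10 p-values and q-values, with an assigned gene. A further deposited table holds the authors' own comparison of RPB1 between genotypes and was not used. Of the files' 44686 transcripts, 43788 were found in GENCODE 44, 78.4% with identical coordinates; gene starts and ends are those of its canonical transcripts.

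The highest fold per gene symbol was taken, ranked in its list and divided between genotypes, with 1.5-fold as the limit. Regions sharing at least 1 bp were called shared. Coverage used any region over the gene, whatever its assigned symbol. Read depth is unknown. Scripts in Python 3.11.15 with pandas 2.3.3 and statsmodels 0.14.6 were tested on simulated regions. The members, gene lists and motifs were chosen with earlier results of these data known. Named genes were the 10 members, genes given a region inside a member, per list at most the 2 lowest and 2 highest RPB1 ratios, and the 5 genes nearest in pattern; some of these are not reported here. Alternatives changed the limit, the assignment, the q-value minimum, the overlap, merging, the ranking and the centring.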

Additional observations from a re-analysis of the deposited data

How the results depend on the processing

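No paired analysis was possible because each antibody and genotype had 1 library and the labels give no replicate numbers. With 1 library per group, neither clone, culture nor immunoprecipitation error is measured, and the depth of the lists is unknown.

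With a 2-fold limit, 2 genes were lower with RPB1, and 1 was lower and 0 higher with pSer2 RPB1. The shares of all genes given earlier are for the 1.5-fold limit on undivided ratios of assigned regions. No such share stands beside the counts under the alternatives here, so nothing about the genes follows from these counts. Dividing by the median ratio of all genes left 2 lower and 1 higher with RPB1, and 3 lower and 1 higher with pSer2 RPB1. By regions overlapping the gene, pSer2 RPB1 had 2 lower and 0 higher, and by promoter regions 2 lower, with only 6 genes left with a ratio under each choice in place of 9. ITIH3 and ITIH4 had none there, and at a -log10 q-value of at least 5 ITIH4 had no pSer2 ratio and ITIH1 no RPB1 ratio. The pSer2 ratio of TTR became 0.364 both by regions overlapping the gene and by promoter regions. It then set a WT summit 1320 bp past the gene end against a SHP-1 KO summit 27 bp past the start, which are unlike places. The pSer2 ratio of VTN became 1.02 by overlap. For AMBP it became 0.176 by promoter regions, because its long WT region peaks at the gene end but counts as a promoter region.

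Shared shares under a reciprocal overlap of 50% were 30.8% for WT RPB1, 34.3% for SHP-1 KO RPB1, 32.6% for WT pSer2 RPB1 and 39.5% for SHP-1 KO pSer2 RPB1. Merging regions within 500 bp gave 96.2% for SHP-1 KO RPB1 and 64.7% for WT pSer2 RPB1, and the latter was also 64.7% at a -log10 q-value of at least 5. Merging left 32, 26, 17 and 16 regions in the order WT RPB1, SHP-1 KO RPB1, WT pSer2 RPB1 and SHP-1 KO pSer2 RPB1. The median covered share in SHP-1 KO RPB1 went from 54.1% to 33.5% at that q-value minimum. The cause of these shifts was not tested. Of 173 values recomputed, 149 stayed within their limits, 24 moved and 0 were labelled reversed. Among 62 counts, medians and shares, 20 moved, against 4 of 111 single-gene ratios and numbers of genes with a ratio. The 111 include ratios that a 2-fold limit cannot change and ratios that dividing by the median scales alike for every gene. That division took the RPB1 ratio of ITIH2 from 0.890 to 1.20 and that of VTN from 0.805 to 1.09, without a reversed label. The total of 149 therefore does not measure stability.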
